A study of Homo sapiens with 6 samples.

Results

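The SERPIN protease inhibitor genes were examined in the human liver cancer line PLC/PRF/5 at 48 h after small interfering RNA (siRNA) was transfected. Members were taken by name, as every gene whose symbol in the array annotation stands alone for its row and starts with SERPIN. This gave 29 genes of 15971 with such a symbol, each with 1 row among the 18708 transcript clusters (groups of probe sets that cover a gene) of the array. They comprised 10 genes of clade A, 10 of clade B and 9 of clades C to I. A control group of 3 arrays received an irrelevant siRNA (siGL) and a knockdown group of 3 arrays received siRNAs against SLU7, a factor of the second step of pre-mRNA splicing. Both groups were the same cell line grown in the same medium and transfected with the same lipid reagent, and total RNA was hybridised 1 sample per Affymetrix Human Exon 1.0 ST array. The title of the series concerns liver differentiation, metabolism and quiescence, and the design asks what changes when SLU7 is reduced.

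Serpins share a fold with an exposed reactive centre loop. In the inhibitory members a protease cuts this loop and is then trapped, distorted, in a covalent complex, so each serpin molecule is used once. The liver secretes many of the serpins of blood plasma, which restrain clotting, clot lysis, complement and the proteases of white blood cells. Some members inhibit nothing and carry hormones or fold collagen, and clade B members lack a classical signal peptide and act mainly inside cells.

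Array values are on the log2 scale, where 1 unit is a doubling, and the number of arrays limits their precision. Array medians lay between 6.61 and 6.63 and lower quartiles between 4.86 and 4.98, and a value below the lower quartile of its own array is called dim here. Separate cultures are not stated for the replicates, so each p-value reflects array-to-array spread alone, part of which may be technical. SLU7 was 7.89, 7.01 and 7.24 with control siRNA and 5.84, 5.58 and 6.21 with SLU7 siRNA. The groups did not overlap, and the difference was -1.51 ± 0.31 (SE) log2 units with a limma adjusted p of 0.078. On the first principal component control replicate 2 and siSLU7 replicate 1 lay far from the remaining arrays, so differences are also given for that pair and for the other 4. Of 9 measured hepatocyte markers, 6 lay above the array median on all 6 arrays, among them APOA1, TF and KRT18. ALB, the albumin gene, was dim on all 6 arrays (3.87 ± 0.68 and 3.07 ± 0.30, SD, n = 3), so this defining marker of hepatocytes stayed in the dim range. All 9 markers had a negative difference, and 5 of them (55.6%) were lower without overlap between groups, against 9.21% of all clusters. The median level of the list ran from 10.16 to 10.96 in the control arrays and from 9.39 to 9.68 in the SLU7 siRNA arrays. Its part in the serpin differences was not tested. Of 9 blood and endothelial markers none lay above the array median on all arrays (median level 5.33 to 5.68 and 5.22 to 5.93), and PTPRC, the pan-leukocyte marker, was dim on all. Of 9 fibroblast and stellate markers 2 did, PDGFRB and DES (median level 4.70 to 5.49 and 4.59 to 5.45), while COL1A2, COL3A1, DCN and LUM were dim on all.

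No SERPIN member passed the limma test over all clusters, in which 0.433% of clusters passed (0.299% lower and 0.134% higher). At an unadjusted p under 0.05 there were 6 members, or 20.7%, against 13.1% of all clusters. Those lower at that level were SERPINA5, SERPINB1, SERPINF2 and SERPING1, and those higher were SERPINB2 and SERPINI1. In 5 members the 3 arrays of each group did not overlap, the same genes without SERPINB2. Of these, 4 were lower with SLU7 siRNA and 1 higher, where over all clusters 18.9% did not overlap, 9.21% lower and 9.64% higher. That is 17.2% of the members, close to the share of the whole array. Negative differences were seen in 20 of the 29 members, and the family median was -0.07 log2 units, beside 49.5% of all clusters and a median of 0.00. The family median was -0.26 without control replicate 1, -0.27 without siSLU7 replicate 3, -0.20 without control replicate 3, -0.16 without siSLU7 replicate 1 and -0.11 without control replicate 2. It was -0.69 over the 6 members left (SERPINB1, SERPINB6, SERPINB9, SERPINF2, SERPING1 and SERPINH1) when clusters whose mean lay under the median of all cluster means were left out.

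The sets of the family were described by counts and medians. Among the 12 hepatocyte-secreted genes 10 were below 0, their median was -0.56 log2 units, and 3 did not overlap between groups, all lower. The pair of arrays and the other 4 gave this set medians of -0.24 and -0.73, with opposite signs in 7 of the 12 genes and 4 lower in both. Of the 10 clade B genes 6 were negative, with a median of -0.04, and 1 (10.0%) did not overlap. Without the clusters under the median of cluster means only SERPINB1, SERPINB6 and SERPINB9 were left of clade B, all negative, with a median of -0.60. Clade A as a whole had a median of -0.04, and clades C to I had one of -0.48 with 8 of 9 negative. Without control replicate 2 the median of clade A was 0.34. Without that array the median of the hepatocyte-secreted genes was -0.72, and without siSLU7 replicate 1 that of clades C to I was -0.24. The difference between these sets was not tested, and in total RNA of a culture fewer cells making a product and less RNA per cell cannot be told apart.

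**Figure D1:**
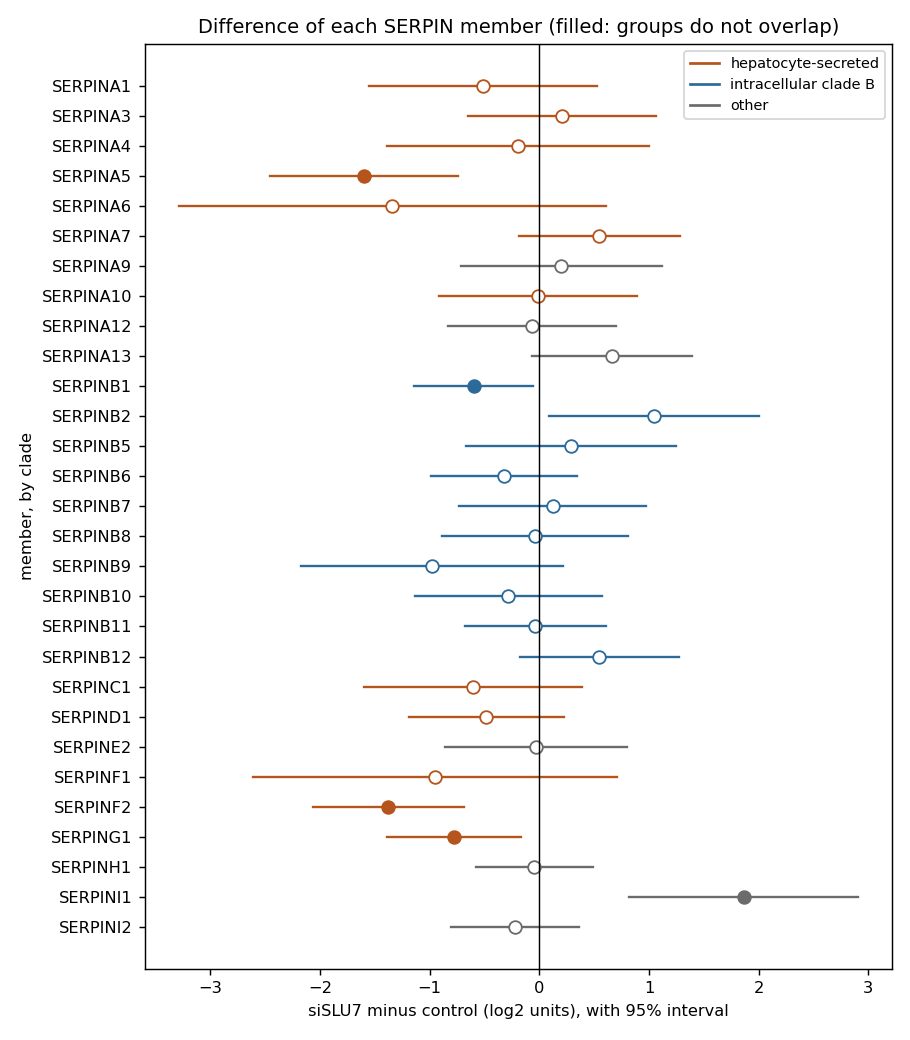
The difference of siSLU7 minus control (log2 units, x axis) is plotted for each of the 29 members with its 95% interval from limma, orange for hepatocyte-secreted, blue for clade B and grey for other members. Filled points are the 5 members whose groups do not overlap, of which SERPINI1 is the only one above 0.

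The members also differed in where they lay on the arrays. On all 6 arrays 5 members lay above the array median: SERPING1, SERPINH1, SERPINB6, SERPINF2 and SERPINB1. All 5 had a negative difference (median -0.60) and 3 of them did not overlap between groups, all lower, where 9.21% of all clusters were lower. The share among clusters of like brightness was not computed. At the other end, 8 members were dim on all 6 arrays (SERPINA7, SERPINA9, SERPINA13, SERPINB7, SERPINB10, SERPINB11, SERPINC1 and SERPINI2). That is 27.6% of the family, against 16.2% of all clusters, and 4 of the 8 were negative. A further 11 members were dim on 1 to 5 arrays, and differences between dim values have an uncertain size.

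Among the secreted inhibitors of clot lysis and complement, SERPINF2 and SERPING1 were both lower on every SLU7 siRNA array, and neither passed the test. SERPINF2 encodes alpha-2-antiplasmin, the main plasma inhibitor of plasmin. Its control values were 8.44, 8.86 and 8.84 and its SLU7 siRNA values 6.92, 7.30 and 7.80. All 3 knockdown arrays lay under the lowest control array, by a gap of 0.64 log2 units. The means were 8.71 ± 0.24 and 7.34 ± 0.44 (SD, n = 3), a difference of -1.38 ± 0.30 (SE) or 2.60-fold lower, with a 95% interval of -2.07 to -0.69. The limma adjusted p was 0.0897. The difference was -1.95 within the pair and -1.09 among the remaining 4 arrays. The adjusted p was 0.0496 with that array split as a block and 0.0243 when the clusters under the median of cluster means were left out, so the call turns on the setting.

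SERPING1 encodes C1 inhibitor, which blocks the complement proteases C1r and C1s, plasma kallikrein and factor XIIa. Its values were 10.65, 10.05 and 10.65 with control siRNA and 9.58, 9.72 and 9.71 with SLU7 siRNA. The knockdown arrays lay within a narrow band below all control arrays, and control replicate 2 was the lowest of the controls. The means were 10.45 ± 0.35 and 9.67 ± 0.08 (SD, n = 3), a difference of -0.78 ± 0.27 (SE) or 1.72-fold lower (95% interval -1.39 to -0.17, limma adjusted p = 0.252). It was -0.47 in the pair and -0.93 among the other 4.

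SERPINA5, the protein C inhibitor, had the largest negative difference of the family but started from a level near the lower quartile. It was 5.24, 4.35 and 5.33 with control siRNA and 2.91, 3.94 and 3.25 with SLU7 siRNA. The groups lay apart by 0.40 log2 units, and all 3 knockdown arrays and control replicate 2 were dim. The difference was -1.60 ± 0.37 (SE), or 3.03-fold lower, with a 95% interval of -2.46 to -0.75 and a limma adjusted p of 0.107. It was -1.44 in the pair and -1.68 among the other 4, and groups without overlap must give the same sign in both. With the array split as a block its adjusted p was 0.0286, and 0.0408 with array weights. The sequence before its start is shown because this member lay apart between groups and had the largest negative difference. It is the RefSeq window at chr14:94581176-94581425 (GRCh38.p14, plus strand), and capitals mark a CAGCTG E-box and a GC box (GGGCGG).
SERPINA5: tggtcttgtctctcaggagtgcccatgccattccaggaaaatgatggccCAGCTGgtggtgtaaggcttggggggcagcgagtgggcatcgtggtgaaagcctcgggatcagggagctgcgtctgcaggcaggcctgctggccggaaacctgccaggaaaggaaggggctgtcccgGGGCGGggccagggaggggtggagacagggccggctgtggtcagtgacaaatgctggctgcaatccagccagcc

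Of the plasma inhibitors of thrombin, factor Xa and kallikrein, none of the 4 that follow lay apart between groups. SERPINC1, antithrombin, was 3.99, 2.19 and 3.35 with control siRNA and 2.42, 2.81 and 2.49 with SLU7 siRNA. All 6 values were dim and the groups overlapped, since control replicate 2 was the lowest array of all. Its difference was -0.60, with a 95% interval of -1.60 to 0.39. SERPIND1, heparin cofactor II, was 5.84, 5.80 and 5.66 in the control arrays and 4.79, 5.23 and 5.83 in the knockdown arrays. Its controls lay close together and siSLU7 replicate 3 reached them, so the difference of -0.48 (95% interval -1.19 to 0.22) rested on the other knockdown arrays. SERPINA10, the protein Z-dependent inhibitor of factor Xa, was 4.20, 4.13 and 4.75 and then 5.16, 3.72 and 4.16. The groups overlapped fully, with a difference of -0.01 (95% interval -0.91 to 0.89). SERPINA4, kallistatin, was 3.76, 5.70 and 4.03 with control siRNA and 4.60, 3.66 and 4.65 with SLU7 siRNA. Only control replicate 2 was not dim, and the difference of -0.19 was 0.41 without that array.

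The antiproteases of the acute phase gave no direction. SERPINA1, alpha-1-antitrypsin, is the inhibitor of neutrophil elastase and normally one of the most abundant liver products. In these arrays it was 5.21, 5.95 and 4.06 with control siRNA and 4.30, 4.87 and 4.51 with SLU7 siRNA. The control values spanned the knockdown values, and 4 of the 6 arrays were dim. The difference of -0.51 (95% interval -1.55 to 0.52) was -1.65 in the pair and 0.05 among the other 4. SERPINA3, alpha-1-antichymotrypsin, was 4.43, 5.76 and 5.45 and then 5.74, 5.23 and 5.28. Control replicate 1 was its only dim array and the groups overlapped, with a difference of 0.21 (95% interval -0.65 to 1.06).

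The hormone carriers pointed in opposite directions, with wide intervals. SERPINA6, which encodes corticosteroid-binding globulin, was 3.59, 4.68 and 5.08 with control siRNA and 5.33, 2.03 and 1.97 with SLU7 siRNA. Its highest value was siSLU7 replicate 1 and its lowest values were the other knockdown arrays, 3.33 log2 units apart on average. The difference of -1.34 ± 0.85 (SE) therefore had a 95% interval of -3.28 to 0.60, and it was 0.65 in the pair and -2.34 among the other 4. SERPINA7, thyroxine-binding globulin, was 3.57, 3.35 and 3.15 and then 4.51, 3.71 and 3.49. All its values were dim, and 1 knockdown array lay inside the control range, with a difference of 0.55 (95% interval -0.19 to 1.28). SERPINF1, pigment epithelium-derived factor, which inhibits no protease, was 6.97, 3.96 and 6.44 with control siRNA and 4.58, 4.33 and 5.62 with SLU7 siRNA. Control replicate 2 was 2.74 below the mean of the other controls, and without it the difference was -1.86 in place of -0.95 (95% interval -2.61 to 0.71). SERPINF1 is the neighbour of SERPINF2 on chromosome 17, and it was dim on 3 arrays where SERPINF2 was dim on none.

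The SERPINA6 promoter is shown because it holds the most copies of a liver-type motif in the family, the core letters GTTAAT of sites for the hepatocyte nuclear factor HNF1. Matches lie 170, 115 and 58 bases before the start and are in capitals (chr14:94323337-94323586, GRCh38.p14, minus strand).
SERPINA6: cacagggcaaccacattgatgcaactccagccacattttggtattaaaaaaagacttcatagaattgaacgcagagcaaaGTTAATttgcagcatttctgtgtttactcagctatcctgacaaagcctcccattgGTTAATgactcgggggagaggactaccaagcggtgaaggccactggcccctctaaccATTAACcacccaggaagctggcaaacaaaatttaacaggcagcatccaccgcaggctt
Promoter windows were matched for 22 of the 29 members (35 windows of 250 bases, some genes having several starts), and GTTAAT on either strand occurred in those of 7 members. Of these, 5 were among the 8 hepatocyte-secreted genes with a window (SERPINA1, SERPINA4, SERPINA6, SERPINA7 and SERPINA10), and the others were SERPINB12 and SERPINI2. Counted by window, 7 of the 35 held it, against 6.23% of all 35116 windows of that length. Of the 5 secreted genes with this motif SERPINA7 had a positive difference, and in none did the groups lie apart. The letters TTGCNNAA of C/EBP-type sites were in 5 of the 35 windows, from 5 members (9.05% of all windows). The HNF4-type letters CAAAGTCCA were in none (0.325%). A match is a run of letters and not a measured binding site.

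**Figure D2:**
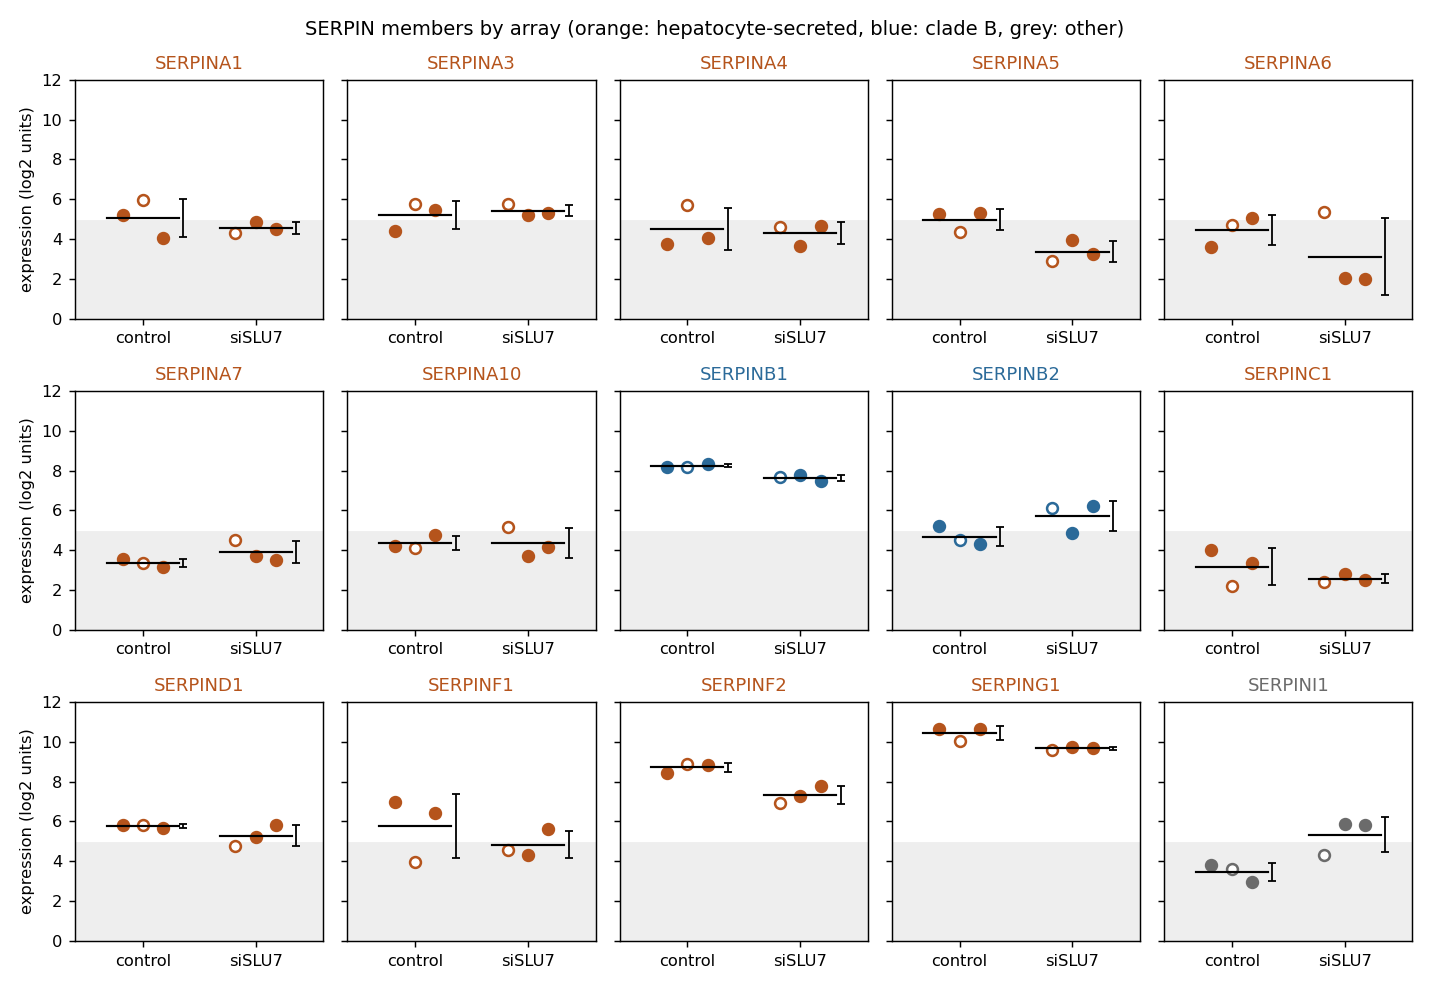
Log2 expression (y axis) of 15 members is plotted per array for the control and siSLU7 groups: the 12 hepatocyte-secreted genes and SERPINB1, SERPINB2 and SERPINI1. Lines are group means with SD bars, open circles are control replicate 2 and siSLU7 replicate 1, and the grey band lies below the middle of the arrays' lower quartiles. SERPINF2, SERPING1 and SERPINB1 separate above the band, and SERPINA5 and SERPINI1 separate across its edge.

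Outside the liver plasma group, SERPINI1 had the largest positive difference and SERPINH1 the smallest range over the 6 arrays. SERPINI1 encodes neuroserpin, an inhibitor of tissue plasminogen activator best known from neurons. It was 3.83, 3.63 and 2.97 with control siRNA and 4.30, 5.88 and 5.83 with SLU7 siRNA. All control arrays and siSLU7 replicate 1 were dim, while the other knockdown arrays were not, and the groups lay apart by 0.48 log2 units. The difference was 1.86 ± 0.46 (SE), or 3.64-fold higher, with a 95% interval of 0.82 to 2.91 and a limma adjusted p of 0.121. It was 0.67 in the pair and 2.46 among the other 4. With array weights, which gave a difference of 2.33, the adjusted p was 0.0216. The sequence before its start is shown because this member lay apart between groups (chr3:167735471-167735720, GRCh38.p14, plus strand). It holds 4 copies of CAGCTG, the most of any member, in capitals 174, 137, 108 and 78 bases before the start. This E-box occurred in 5 of the 35 windows of the family, from 5 members, and in 4911 of all 35116 windows.
SERPINI1: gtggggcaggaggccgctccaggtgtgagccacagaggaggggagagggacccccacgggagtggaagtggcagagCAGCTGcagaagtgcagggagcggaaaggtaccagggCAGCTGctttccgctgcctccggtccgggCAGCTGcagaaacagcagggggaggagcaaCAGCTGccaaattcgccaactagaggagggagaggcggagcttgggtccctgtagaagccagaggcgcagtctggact

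SERPINH1, known as HSP47, is a chaperone of the endoplasmic reticulum that binds procollagen and inhibits no protease. Its values were 10.15, 9.94 and 10.19 with control siRNA and 10.06, 10.12 and 9.97 with SLU7 siRNA. All 6 arrays lay within 0.26 log2 units and the groups overlapped. The difference was -0.04, and its 95% interval of -0.58 to 0.49 leaves room for a change of about that size in either direction. Its promoter is shown because it holds the only match in the family to the heat shock element, an inverted repeat of GAA units, which 0.441% of all windows hold (chr11:75562003-75562252, GRCh38.p14, plus strand). The match, 76 bases before the start, reads on the minus strand and is in capitals.
SERPINH1: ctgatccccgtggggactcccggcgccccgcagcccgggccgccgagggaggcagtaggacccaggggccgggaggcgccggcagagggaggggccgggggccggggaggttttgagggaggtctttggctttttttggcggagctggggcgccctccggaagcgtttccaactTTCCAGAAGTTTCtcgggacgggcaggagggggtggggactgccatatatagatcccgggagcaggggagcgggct

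The remaining members outside clade B overlapped between groups. SERPINE2, protease nexin-1, an inhibitor of thrombin and urokinase at cell surfaces, was 5.60 ± 0.68 and 5.57 ± 0.24 (SD, n = 3). SERPINI2 was dim throughout (2.46 ± 0.20 and 2.23 ± 0.24), as was SERPINA9 (3.62 ± 0.81 and 3.82 ± 0.21). SERPINA12, the adipose serpin vaspin, was 5.36 ± 0.58 and 5.29 ± 0.23. SERPINA13, which RefSeq now lists as the transcribed pseudogene SERPINA13P, was dim throughout, with a difference of 0.66 (95% interval -0.06 to 1.39).

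Among the intracellular clade B genes 1 lay apart between groups, SERPINB1. The 3 members on chromosome 6 were negative, and the 7 on chromosome 18 had a median of 0.12 with 3 negative. SERPINB1, an inhibitor of neutrophil elastase and cathepsin G, was 8.20, 8.18 and 8.32 with control siRNA and 7.66, 7.78 and 7.46 with SLU7 siRNA. The controls lay close together and above every knockdown array. The means were 8.23 ± 0.08 and 7.63 ± 0.16 (SD, n = 3), a difference of -0.60 ± 0.24 (SE) or 1.51-fold lower (95% interval -1.14 to -0.06, limma adjusted p = 0.331). It was -0.52 in the pair and -0.63 among the other 4 arrays, and SERPINB1 was called under no alternative setting. SERPINB9, the inhibitor of granzyme B, was 7.81, 7.32 and 7.76 and then 5.33, 7.15 and 7.48. A low siSLU7 replicate 1 set most of its difference of -0.98, which was -0.47 within the other 4 arrays. SERPINB6, a broad inhibitor that includes cathepsin G among its targets, was 9.84 ± 0.25 and 9.52 ± 0.39, and the groups overlapped.

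SERPINB2, plasminogen activator inhibitor 2, was the only clade B member with a difference of 1 log2 unit or more, as were 3.34% of all clusters in that direction. It was 5.22, 4.50 and 4.30 with control siRNA and 6.09, 4.86 and 6.21 with SLU7 siRNA. The groups overlapped because siSLU7 replicate 2 lay below control replicate 1, and 3 of the 6 values were dim. The difference was 1.05 ± 0.42 (SE), or 2.07-fold higher, with a 95% interval of 0.09 to 2.01 and a limma adjusted p of 0.335. In the other direction 3 members of the family reached 1 log2 unit (SERPINA5, SERPINF2 and SERPINA6), as did 3.57% of all clusters.

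The remaining chromosome 18 members had differences from -0.28 (SERPINB10) to 0.55 (SERPINB12). SERPINB5, or maspin, was 5.55 ± 0.83 and 5.84 ± 0.30, SERPINB8 was 5.89 ± 0.12 and 5.85 ± 0.73, and SERPINB7 was dim at 2.19 ± 0.59 and 2.31 ± 0.47 (SD, n = 3). SERPINB10 and SERPINB11 were dim as well. None of these groups lay apart.

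Promoters of SERPINB1 and SERPINB2 are shown because SERPINB1 was the clade B member that lay apart between groups and SERPINB2 the one with the largest positive difference. SERPINB1 (chr6:2841864-2842113, GRCh38.p14, minus strand) has overlapping GC boxes, in capitals, and 63.6% G and C. SERPINB2 (chr18:63887455-63887704, plus strand) has 37.2% and a TATA box (TATAAA), in capitals, 30 bases before the start.
SERPINB1: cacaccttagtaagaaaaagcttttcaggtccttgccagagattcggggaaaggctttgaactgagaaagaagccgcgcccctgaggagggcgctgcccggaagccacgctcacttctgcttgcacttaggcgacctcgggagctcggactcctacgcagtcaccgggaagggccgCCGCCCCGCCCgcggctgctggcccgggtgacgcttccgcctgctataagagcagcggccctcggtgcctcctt
SERPINB2: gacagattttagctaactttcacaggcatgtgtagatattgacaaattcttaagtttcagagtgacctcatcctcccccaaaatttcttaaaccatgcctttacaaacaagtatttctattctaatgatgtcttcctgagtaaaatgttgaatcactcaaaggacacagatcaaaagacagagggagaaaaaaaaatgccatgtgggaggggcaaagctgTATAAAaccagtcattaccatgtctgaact
The 3 chromosome 6 genes each had a GC box in a window, and of the 8 clade B genes with a window SERPINB5 was the other. TATAAA was in windows of 5 of these 8 genes (SERPINB2, SERPINB7, SERPINB8, SERPINB9 and SERPINB12), and the SERPINB9 window held both motifs. These counts are by gene, and a gene can have several windows. Counted by window over the whole family, GC boxes on either strand were in 12 of 35 and TATAAA in 8 of 35. Over all windows the shares were 42.6% and 10.7%.

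The arrays that stand apart divided the family. Control replicate 2 and siSLU7 replicate 1 share no array with the other 4, so each part gives its own difference. In 15 of the 29 members the 2 differences had opposite signs, or 51.7%, against 35.5% of all clusters. Lower in both parts were 9 members, SERPINA5, SERPINB1, SERPINB6, SERPINB9, SERPINB11, SERPIND1, SERPINF2, SERPING1 and SERPINI2. Higher in both were 5, SERPINA7, SERPINA13, SERPINB2, SERPINB12 and SERPINI1. Members whose groups do not overlap have the same sign in both parts by definition. In clade A 7 of 10 disagreed in sign, and on chromosome 6 none of 3. With the array split as a block, SERPINA5 and SERPINF2 passed the limma threshold, lower, beside 4.19% of all clusters. Because the split was found in the values of the arrays it is applied to, its smaller residual error is not independent evidence.

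**Figure D3:**
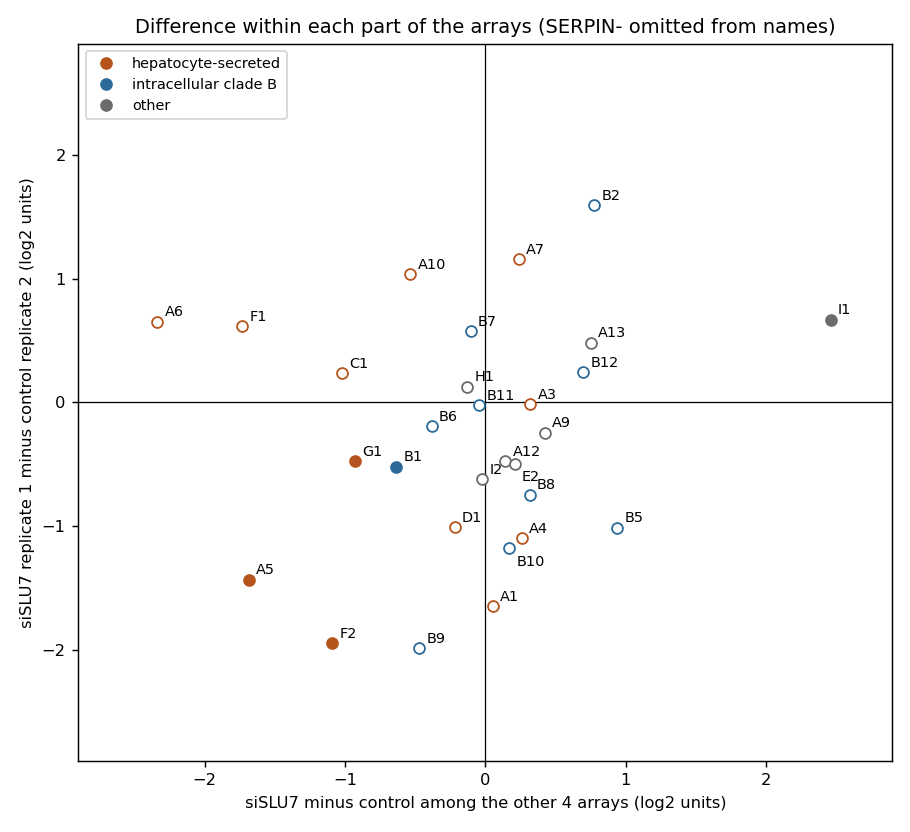
Each point is a member, placed by its difference among the other 4 arrays (x axis, log2 units) and by siSLU7 replicate 1 minus control replicate 2 (y axis, log2 units), coloured by set and filled where the groups do not overlap. All 5 filled points lie in the lower left or upper right part, as groups without overlap must. SERPINA6 and SERPINF1 lie at the upper left and SERPINA1 and SERPINB5 below the x axis to the right.

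**Figure D4:**
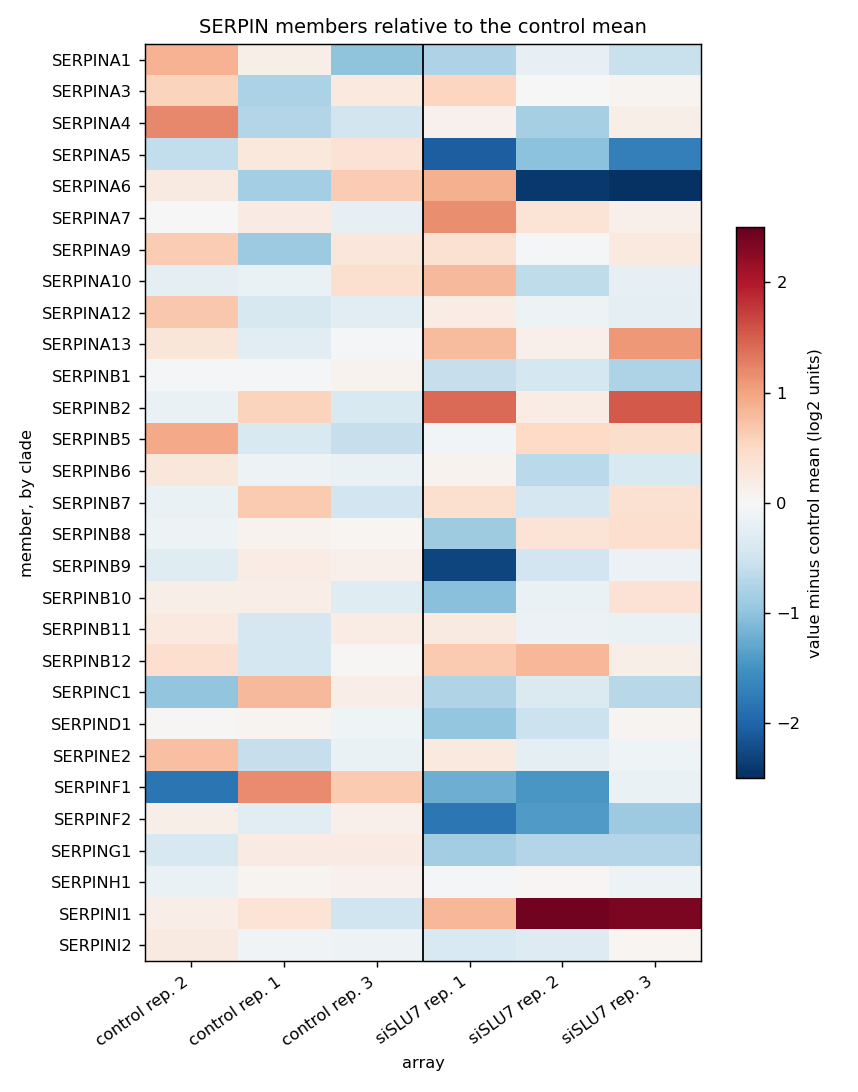
Colour gives each member's value minus its control mean (log2 units) on the 6 arrays, controls left of the line. SERPINF2, SERPING1 and SERPINB1 are blue on all 3 siSLU7 arrays, SERPINI1 is red on all 3, and SERPINA6 is red on siSLU7 replicate 1 and dark blue on the others.

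The proteases that serpins trap centred near 0. Of 34 measured target proteases 20 were negative, with a median of -0.09 log2 units, and 6 did not overlap, all lower. That is 17.6% of them, against 18.9% of all clusters in either direction, 9.21% lower and 9.64% higher. HPN (hepsin), a membrane protease of hepatocytes, was the only one to pass, falling 5.08-fold from 9.59 ± 0.21 to 7.25 ± 0.40 (SD, n = 3, limma adjusted p = 0.0371). Leaving out any 1 array, or adding the replicate number as a block, ended every call on the array, those of HPN and ASGR1 included. Taken with their inhibitors, F2 (prothrombin), whose product SERPINC1, SERPIND1 and SERPINA5 inhibit, had a difference of -1.14 and F10 (factor X) one of -1.33, with no overlap in either. Other clotting targets overlapped between groups. F9, paired with SERPINC1, was 0.80 and dim on all 6 arrays, PROC, paired with SERPINA5, was -0.27, and F11, paired with SERPINA10, was -0.07. PLG, the plasminogen that SERPINF2 guards against, was -0.58 with overlapping groups and was dim on 5 of the 6 arrays. For SERPING1 the target C1R was -0.06, C1S 0.10, KLKB1 -0.23 and F12 -0.40, all overlapping. PLAT, the target of SERPINI1, was dim on all arrays with a difference of 0.59.

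Genes for clearance and cofactors of serpins had 13 of 15 members negative and a median of -0.45. Without overlap were 6 (40.0%), all lower, against 9.21% of all clusters. ASGR1, a subunit of the hepatocyte asialoglycoprotein receptor, fell 4.04-fold (limma adjusted p = 0.0371), and the other 14 did not pass. Of the 17 genes of secretory export and quality control 14 were negative (median -0.32), 6 (35.3%) were lower without overlap and none passed. Above the array median on all 6 arrays were 15 of these 17 genes and 8 of the 15 for clearance and cofactors. For no list was the share among clusters of like brightness computed. The largest difference without overlap there was in LMAN1, the cargo receptor that carries alpha-1-antitrypsin out of the endoplasmic reticulum, at -0.96 ± 0.24 (SE, limma adjusted p = 0.127). Other secreted protease inhibitors, drawn from families without the serpin fold, had 19 of 28 negative and a median of -0.32, with 7 of 28 lower and 0 higher without overlap, where 9.21% of all clusters were lower and 9.64% higher. None passed, and at an unadjusted p under 0.05 there were 6 lower and 0 higher. That is 21.4% in either direction, against 13.1% of all clusters, of which 1224 were lower and 1226 higher at that level. The largest difference without overlap was in RECK (-1.61, limma adjusted p = 0.0897), an inhibitor of matrix metalloproteinases. AGT, angiotensinogen, has the serpin fold under another name and was 11.27 ± 0.55 and 10.60 ± 0.13 (SD, n = 3) with overlapping groups.

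Intracellular inhibitors of cysteine proteases had 5 of 7 positive (median 0.43). CAST, the calpain inhibitor calpastatin, was the only one without overlap, at -1.95 ± 0.45 (SE, limma adjusted p = 0.105). Of 11 measured liver transcription factors that act on serpin promoters 8 were negative (median -0.15). Without overlap were 3 (27.3%), all lower, against 9.21% of all clusters. None passed and 1 had an unadjusted p under 0.05. PROX1 had the largest difference without overlap, -0.95 (limma adjusted p = 0.258). The collagen-folding partners of SERPINH1 had 14 of 20 negative (median -0.36) beside the -0.04 of SERPINH1 itself, and 3 (15.0%) were lower without overlap. COL18A1, a collagen of basement membranes, was the largest without overlap at -1.71 ± 0.28 (SE, limma adjusted p = 0.0506), and none passed. Among the markers, FGB (fibrinogen beta, -1.07) of the hepatocyte list and CDH5 (-0.29) of the blood and endothelial list had the largest differences without overlap.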

How the data were processed

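Total RNA of 6 samples was hybridised to 6 single-channel exon arrays. Per the labels, the authors deposited log2 values, 1 per transcript cluster, made with the aroma.affymetrix core chip definition, and RMA is named in the submitters' processing notes. The log2 scale was read from the range of the values. The genome build is not given in the sources used here. One value per gene hides exon choice, and no detection calls were used. Rows were named by GEO's annotation of the platform, which can be old. All 29 symbols were found in RefSeq (GRCh38.p14), 1 under a newer symbol.

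The whole table was fitted with limma 3.58.1 (R 4.3.3), group as the only term, and p-values were adjusted over 18708 clusters (Benjamini-Hochberg, threshold 0.05). Lists are given by counts and medians, without a test. Exact permutation of 3 against 3 arrays cannot go below p = 0.1. No 2 arrays were copies (correlations 0.926 to 0.974). The fit was tested on simulated data with independent noise on each array. These lack the spread shared by control replicate 2 and siSLU7 replicate 1, so they do not show how the fit behaves under it.

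The members, lists and alternatives were chosen with earlier results of these data known. Motifs and inhibitor-target pairs were chosen after values were seen. Named are SLU7, every member, and from each list its called genes or else the largest difference without overlap. Per-array values and per-gene alternatives cover 15 members: those called, without overlap, with a difference of 1 log2 unit or more, or hepatocyte-secreted. SERPINB9 and SERPINH1 were given per array after their values were seen. The alternatives were a replicate block, array weights, median centring, leaving out dimmer clusters (mean under the median of cluster means), an intensity trend (robust), quantile normalization, the array split as a block, the other 4 arrays alone, a threshold of 0.01, the mean of a gene's rows, and leaving out each array.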

Additional observations from a re-analysis of the deposited data

How the results depend on the processing

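With the replicate block no cluster and no SERPIN member passed. Deviations of same-numbered arrays from their group means correlated at -0.38, -0.31 and 0.14. The highest correlation was 0.52, between control replicate 2 and siSLU7 replicate 1. Deviations within a group depend on one another and these 2 arrays weigh heavily on them. The values therefore cannot settle whether the replicate numbers pair the arrays.

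Over all clusters 56 were called lower and 25 higher. The counts were 278 and 196 without the dimmer clusters, 268 and 173 with an intensity trend, 354 and 221 with array weights, 426 and 357 with the array split block, and 0 and 0 with the replicate block, at a threshold of 0.01, among the other 4 arrays alone and without any 1 array. Called lower among members were 1 without the dimmer clusters and 1 with the trend (SERPINF2 in both), 2 with array weights and 2 with the split block (SERPINA5 and SERPINF2 in both), and called higher 1 with array weights (SERPINI1). SLU7 passed without the dimmer clusters and with the trend (-1.51 in both), with array weights (-1.61) and with the split block (-1.51).

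Without the dimmer clusters the median was -0.69 for all members left, -0.60 for clade B and -0.78 for clades C to I, and too few were left of clade A and of the hepatocyte-secreted genes. Among the other 4 arrays it was -0.22 for clades C to I and -0.73 for hepatocyte-secreted genes. Without any 1 array the medians ran from -0.27 to -0.077 for all members, from -0.27 to 0.34 for clade A, from -0.14 to 0.04 for clade B, from -0.56 to -0.24 for clades C to I and from -0.72 to -0.45 for hepatocyte-secreted genes, and SLU7 from -1.69 to -1.25.

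Of the 15 members with per-gene alternatives, 11 kept their direction under every alternative. Part of this count was fixed in advance. Groups without overlap keep their sign whichever arrays are left out, and both blocks and the intensity trend leave every difference unchanged. The sign turned for SERPINA1 (0.053) and SERPINA4 (0.26) among the other 4 arrays. Without 1 array the range was -0.18 to 0.48 for SERPINA3, -0.56 to 0.41 for SERPINA4 and -0.42 to 0.305 for SERPINA10. The causes were not tested. Dim values limit what can be read of 19 members. The mean of a gene's rows changed nothing, as each member has 1 row.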

Other observations

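The gene that lies head to head with SERPINI1 on chromosome 3 was also higher. PDCD10, a signalling adaptor, is its nearest protein-coding neighbour in RefSeq, and its level was 6.82 ± 0.23 with control siRNA and 7.42 ± 0.25 with SLU7 siRNA (SD, n = 3). The groups did not overlap, and the difference of 0.61 ± 0.26 (SE) had a limma adjusted p of 0.374. It was 0.66 between siSLU7 replicate 1 and control replicate 2 and 0.58 among the remaining 4 arrays. GOLIM4, on the other side of SERPINI1, had a difference of -0.14 with overlapping groups. Beside SERPINB6 on chromosome 6, NQO2, a quinone reductase, was lower at 10.32 ± 0.31 and 9.05 ± 0.19, without overlap (difference -1.28, limma adjusted p = 0.0796). On chromosome 14 the gene GSC, next to the serpin cluster, was 7.59 ± 0.39 and 7.54 ± 0.18. Also lower without overlap were SNAP29 beside SERPIND1 (-0.38) and CDH7 beside SERPINB8 (-0.91, dim on all 6 arrays), where SERPINB8 itself was -0.04. Over all clusters 18.9% did not overlap, and whether neighbours change with their serpins was not tested. PDCD10, GOLIM4, NQO2, GSC, SNAP29 and CDH7 were singled out after values were seen.

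A further 2 clusters carry the symbols of both SERPINB3 and SERPINB4, which are near-identical copies, and were not counted as members. Both were dim on all 6 arrays, with overlapping groups and differences of -0.63 and -0.32 log2 units.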
